A study of Mus musculus with 6 samples.

Results

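A stretch of mouse chromosome 11 from 57 to 63 Mb (GRCm38, chr11:57000000-63000000) was examined for variant sites called against the reference genome in both bone marrow and ear of at least 1 of 3 mice. It held 2612 such sites of 77823 in the whole series. The members were chosen by position and by being called in both tissues, so their number, their place and the number of animals that carry them are descriptions and were not tested. The lists hold no phase, so the stretch is called an interval here: the data place the alleles at 1 locus in the same animals but do not show that they lie on 1 copy of the chromosome.

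The study captured exons from genomic DNA of whole bone marrow and matched ear, 3 samples of each tissue, to look for mutations acquired in blood cells. The mice all had the P95H mutation in Srsf2, a gene of RNA splicing on the same chromosome outside the interval, and had received tamoxifen, the drug that switches on the Cre recombinase used to activate the mutant allele. Tissue was taken 50 to 60 weeks later, when the animals had become moribund. Animals 54 and 108 were male and animal 136 was female, and the strain is given as C57BL/6. The labels give every sample the genotype R26CreERT2 Srsf2 P95H, in which the ROSA26 locus drives the recombinase in most tissues, ear included. The series' design text instead counts 1 animal with hScl-CreERT and an R26eYFP reporter, in which an enhancer of the blood stem cell gene Scl drives the recombinase, and does not say which animal it was. No animal without the Srsf2 change was analysed here, so nothing below compares mutant with wild type.

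C57BL/6 is the inbred strain from which the mouse reference genome was made, and both copies of a chromosome of such a mouse match the reference at nearly all positions. A segment that entered a line from another strain is seen as a run of closely spaced variant sites, at intermediate read fractions where 1 copy carries it and near all reads where both do. Genetically modified lines are known to keep such segments through backcrossing. Where the alleles of this interval came from was not tested. The interval is rich in genes of clustered families, among them olfactory receptors, which detect odorants in the nose.

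Of the windows of 250 bases before a RefSeq gene start, those with the most member sites belonged to 3 olfactory receptor genes. They show how closely the alleles can be spaced. For Olfr319 and Olfr323 the RefSeq start is the first base of the start codon, and whether any of these windows holds a promoter was not tested. The 250 bases before the RefSeq start of each are printed from GRCm38.p6, 5′ to 3′ on the strand of the gene, with the reference base of each single nucleotide member in capitals. Olfr319 lies on the plus strand (chr11:58701453-58701702), Olfr313 on the plus strand (chr11:58816678-58816927) and Olfr323 on the minus strand (chr11:58626045-58626294).
Olfr319: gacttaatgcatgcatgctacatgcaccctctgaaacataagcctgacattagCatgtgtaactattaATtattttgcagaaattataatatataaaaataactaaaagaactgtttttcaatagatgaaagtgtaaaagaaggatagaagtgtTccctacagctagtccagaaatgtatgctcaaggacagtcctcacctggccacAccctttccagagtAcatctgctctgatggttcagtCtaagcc
Olfr313: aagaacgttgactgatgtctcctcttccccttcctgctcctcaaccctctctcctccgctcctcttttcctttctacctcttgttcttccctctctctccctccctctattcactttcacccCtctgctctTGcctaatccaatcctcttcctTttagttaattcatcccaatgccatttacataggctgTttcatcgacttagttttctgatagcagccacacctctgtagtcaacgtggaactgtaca
Olfr323: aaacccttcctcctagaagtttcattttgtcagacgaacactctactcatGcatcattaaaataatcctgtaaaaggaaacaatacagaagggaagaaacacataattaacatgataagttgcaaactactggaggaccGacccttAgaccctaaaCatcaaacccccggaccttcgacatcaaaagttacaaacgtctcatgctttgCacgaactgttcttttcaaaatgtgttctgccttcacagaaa

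Positions in these sequences are counted from 1 at the first printed base, and each change gives the reference base, the position and the variant base. Olfr319 had 7 changes, C54A, A69C, T70C, T155G, A208G, A222G and C244T. Animals 108 and 136 carried 6 of them in both tissues, and C54A was a member through animal 136 alone. At C244T, the change nearest the gene, the variant base made up 46.3% of 201 reads in the marrow and 49.3% of 213 reads in the ear of animal 108, and 47.3% of 226 reads in the marrow and 55.7% of 194 reads in the ear of animal 136. The 4 values are all intermediate, and animal 54 had no call there in both tissues. Olfr313 had 5 changes, C123G, T132C, G133A, T154C and T191C, all carried by both animals. Olfr323 also had 5, of which G140A, A147G, C157T and C209T were carried by both animals and G51A by animal 108. In all, 25 genes had at least 1 single nucleotide member in these 250 bases. The 70 members that fell anywhere in the 188 windows at RefSeq gene starts in the interval had the same reference letters as the RefSeq sequence at all 70.

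Animals 108 and 136 carried nearly the same set of sites. The interval held 2434 members in animal 108 and 2371 in animal 136, against 22 in animal 54. Of the members, 2202 were found in both animals 108 and 136, which is 90.5% of those of animal 108 and 92.9% of those of animal 136, and 2066 of these were single nucleotide sites and 136 insertions or deletions. Only 5 members were called in both tissues of all 3 animals. By number of carriers, 402 members were in 1 animal, 2205 in 2 and 5 in 3.

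Most of the sites in 1 animal alone were also seen in the other, but in 1 of its tissues. Of 232 sites of animal 108 that were not members through animal 136, 173 (74.6%) had been called in 1 tissue of animal 136, and 59 in neither. Of 169 sites of animal 136 that were not members through animal 108, 131 (77.5%) had been called in 1 tissue of animal 108, and 38 in neither. These sites were shallow. Their median depth was 19 reads in the marrow and 15 in the ear of animal 108, against 79 and 68 reads at the sites in both animals, and 18 in the marrow and 17 in the ear of animal 136, against 74 and 56. A list gives no depth where no variant was called, so whether the other animal lacked the allele there cannot be told apart from too few reads.

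The interval made up a different share of each animal's variants. In animal 136 it held 20.2% of the 11755 sites called in both tissues across the genome (95% Clopper-Pearson interval 19.4 to 20.9), in animal 108 it held 4.87% of 49978 (4.68 to 5.06) and in animal 54 0.0672% of 32732 (0.0421 to 0.102). Such intervals speak of counting error alone: the reads carry no molecular identifiers, several can come from 1 molecule, and neighbouring sites can be read by the same fragment.

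**Figure D1:**
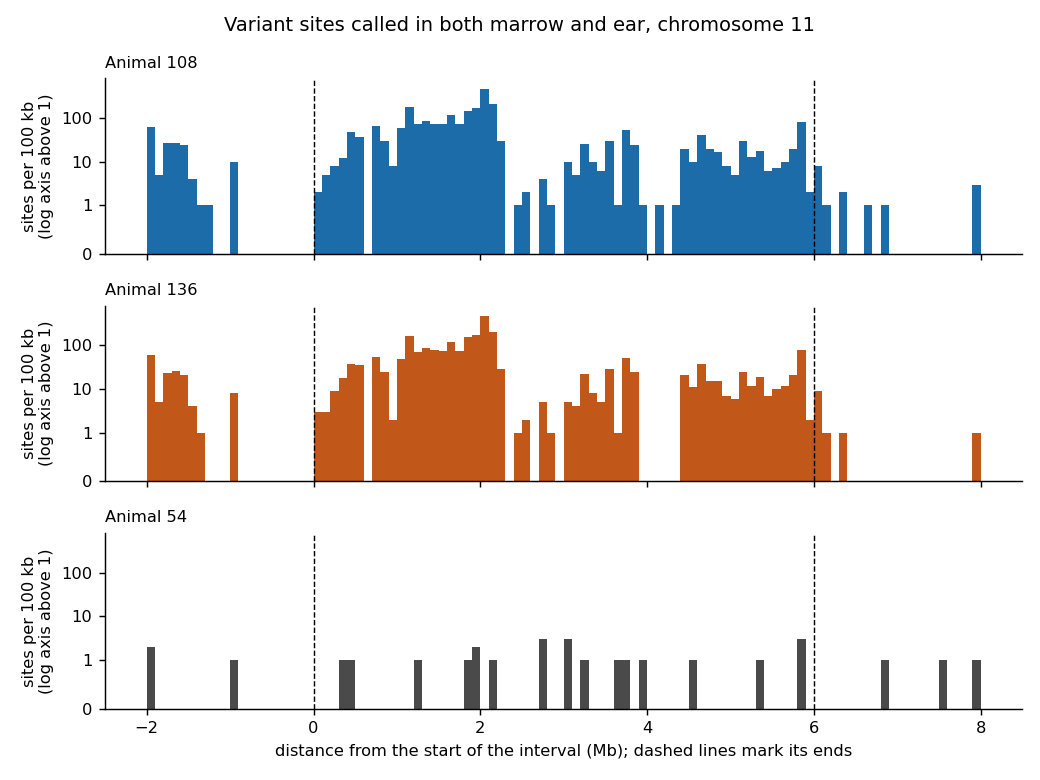
Sites called in both tissues per 100 kb along chromosome 11 in animals 108, 136 and 54, plotted against the distance from the start of the interval in Mb (dashed lines mark its ends; the vertical axis is logarithmic above 1). The profiles of animals 108 and 136 rise and fall together and peak at 463 and 469 sites in the bin 2.0 Mb into the interval, while no bin of animal 54 holds more than 3.

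The sites were unevenly spread within the interval. Of the 2202 sites in both animals, 1621 (73.6%) lay between 58 and 60 Mb, and the median distance between neighbouring positions was 81 bases. The 1 Mb window from 58 Mb held 1043 sites in animal 108 and 1033 in animal 136, against 4 in animal 54. The windows from 59 and 57 Mb held 706 and 215 sites in animal 108 and 705 and 187 in animal 136. From 60, 61 and 62 Mb on, animal 108 had 164, 116 and 190 sites and animal 136 had 148, 106 and 192. The longest stretch without a site of both animals ran from 60864775 to 61449929, which is 585 kb. The genes Map2k3, Kcnj12 and Slc47a2 lie inside it.

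The ends of the interval were not the ends of the shared sites. The last site before it lay at 56040927 in animal 108 and 56040686 in animal 136, and the first one inside at 57011941 in both, in the glutamate receptor gene Gria1. On the other side, the last site inside was at 62992689 and the first beyond at 63073401 in both animals. Farther out, the windows from 54 and 55 Mb held 153 and 151 sites in animal 108 and 139 and 141 in animal 136, and the window from 46 Mb held 239 and 222. Beyond the interval, the windows from 63 and 64 Mb held 13 and 3 sites in animal 108 and 11 and 1 in animal 136. From 65, 66 and 67 Mb on, animal 108 had 44, 26 and 417 sites and animal 136 had 1, 1 and 7.

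Read fractions placed the sites of animals 108 and 136 among heterozygous ones in both tissues. The median variant fraction over sites with at least 10 reads was 47.4% in the marrow and 46.8% in the ear of animal 108, and 46.8% in the marrow and 46.8% in the ear of animal 136. The share of sites with an intermediate fraction, from 20% to 80%, was 98.4% in marrow (97.9 to 98.9) and 98.6% in ear (98 to 99) of animal 108, and 98.8% in marrow (98.3 to 99.2) and 98.8% in ear (98.3 to 99.2) of animal 136. Fractions of 90% or more were found at 4 and 3 sites in the marrow and ear of animal 108, and at 2 and 5 in the marrow and ear of animal 136. In each animal 1 site was that high in both tissues.

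The rest of the sites differed from this pattern a little in animal 108 and more in animal 136. In animal 108 the rest had a median of 47.1% in marrow and in ear, with 94.5% and 94.1% of sites intermediate. In animal 136 the rest had a median of 43.5% in the marrow and 44.1% in the ear, with 82.5% and 81.7% intermediate. Outside the interval, fractions of 90% or more made up 2.88% of the sites in the marrow and 2.99% in the ear of animal 108, and 11% in the marrow and 11.5% in the ear of animal 136, with intervals of 2.73 to 3.04, 2.84 to 3.15, 10.4 to 11.7 and 10.8 to 12.2. Inside it, the upper ends of the 4 intervals were between 0.306% and 0.494%. Sites close to each other on a chromosome tend to be inherited together. These intervals, which treat sites as independent, are therefore too narrow as a comparison of regions. Depth was above that of the rest, with medians of 71 reads in the marrow and 60 in the ear of animal 108 and 69 in the marrow and 53 in the ear of animal 136 inside the interval, against 49, 40, 37 and 30 outside it.

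**Figure D2:**
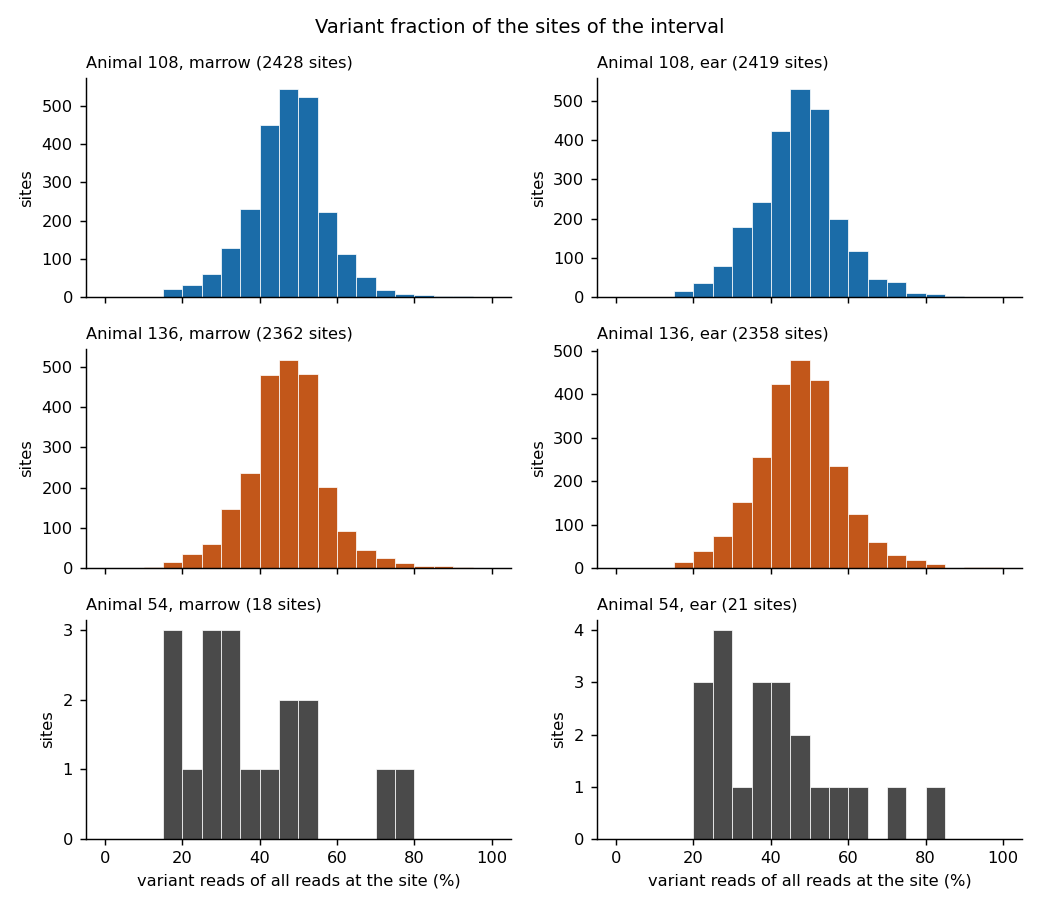
Histograms of the variant fraction (variant reads as a percent of all reads at a site, in steps of 5%) at members with at least 10 reads, marrow on the left and ear on the right, in animals 108, 136 and 54. The 4 panels of animals 108 and 136 have a single peak close to their medians of 46.8% to 47.4%, and the 2 panels of animal 54 hold 18 and 21 scattered sites.

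No difference between marrow and ear was detected over the interval. The median fraction over sites with at least 10 reads in both tissues was 47.4% in the marrow and 46.9% in the ear of animal 108 (2416 sites), 46.8% in the marrow and 46.8% in the ear of animal 136 (2353 sites), and 32.5% in the marrow and 36.1% in the ear of animal 54 (18 sites). Over the 3 animals the medians averaged 42.2% ± 8.47 in the marrow and 43.2% ± 6.20 in ear (SD, n = 3 each), with marrow minus ear at -0.995 points ± 2.28. The two-sided exact sign-flip permutation test over the 3 pairs gave p = 1, and 3 pairs cannot give less than 0.25. Animal 54 set the sign of this mean: without it the difference was 0.314 points.

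Site by site, no member passed Fisher's exact test of marrow against ear with Benjamini-Hochberg adjustment over all sites of the animal. The calls were 0 of 2416 members in animal 108, 0 of 2353 in animal 136 and 0 of 18 in animal 54, where the shares called over the whole series were 0.0327%, 0.0181% and 0.0346% of the sites tested. At an unadjusted p under 0.05 there were 221 members (9.15%) in animal 108, 123 higher and 98 lower in marrow, against 7.43% of all its sites. In animal 136 there were 174 (7.39%), 78 higher and 96 lower in marrow, against 6.22%, and in animal 54 there were 2 of 18 (11.1%), against 8.41%. The smallest adjusted p was 0.0728, in animal 136.

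Between animals 108 and 136, few shared sites differed in the ear. Of 2195 members tested, 13 (0.592%) passed the adjusted threshold of 0.05, against 1.15% of all 8507 sites that both animals had in common. At an unadjusted p under 0.05 there were 206 members (9.38%), against 9.05% of all these sites, a share close to the background. The 13 included 1 site each in Gemin5, Olfr332 and the guanylate kinase gene Guk1. Sites close to each other share reads and are not separate observations.

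The marrow samples gave other sites. Of 2197 members tested there, 7 (0.319%) passed, against 1.42% of 8647 sites in common, among them 2 in Fam114a2 and 1 each in Galnt10, which encodes an enzyme that starts O-linked glycosylation, and Fbxw10, an F-box protein gene. No site passed in both tissues. Of the 13 sites called in the ear, 7 had a difference of the same direction in the marrow, and of the 7 called in the marrow none had one in the ear, where Galnt10 showed a difference of 0. The largest gap among the 13 in the ear, at a synonymous site of Guk1 (59186775), was 70.3% of 37 reads in animal 108 against 19.2% of 26 reads in animal 136, and it had the opposite direction in the marrow, 33.3% of 39 reads against 62.2% of 45 reads.

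**Figure D3:**
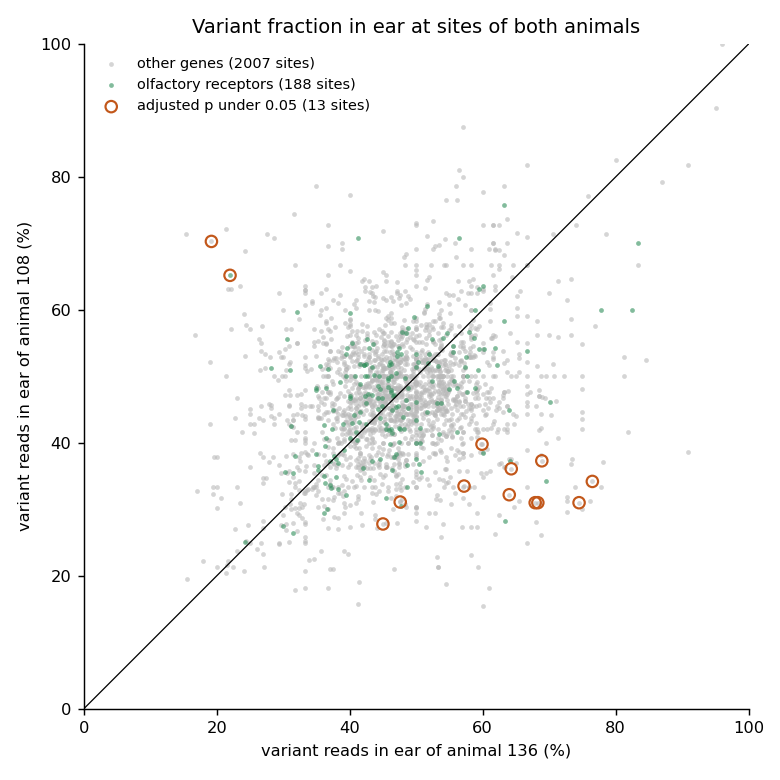
Variant fraction in the ear of animal 108 against that in the ear of animal 136, in percent of reads, at the 2195 members tested in both (points by gene group, diagonal for equal fractions). Circles mark the 13 sites with an adjusted p under 0.05, 2 of them higher in animal 108 and 11 higher in animal 136, and most points lie around the middle of both axes.

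The predicted consequences of the members were mostly outside coding sequence. By the annotation of greatest impact, 1376 members (52.7%) were intronic, 408 (15.6%) synonymous and 214 (8.19%) missense, and 149 lay in 3′ UTRs and 40 in 5′ UTRs. Sites of HIGH or MODERATE impact, called protein-altering here, numbered 228, or 8.73% of members (7.67 to 9.88), against 6.11% of the 75211 other sites (5.94 to 6.29). These intervals also treat sites as independent and are too narrow as a comparison of regions. The label protein-altering goes by predicted impact alone. It takes in a splice site of the non-coding transcript Gm12246 and a splice site ahead of the coding part of Mrpl55. Missense sites stood at 0.525 per synonymous site, against 0.590 in the rest. The share of coding sites depends on which exons were captured, and intergenic sites made up 0.919% of members and 6.54% of the rest.

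Protein-altering members were carried by both animals in most cases. Of the 228, 213 were in animals 108 and 136, 4 in animal 108 alone, 10 in animal 136 alone and 1 in animal 54 alone. At the 213, fractions ran from 19.0% to 73.3% (median 47.3%) in the marrow and from 20.4% to 66.7% (median 44.7%) in the ear of animal 108, and from 19.5% to 75% (median 45.9%) in the marrow and from 18.0% to 75% (median 45.8%) in the ear of animal 136. The 4 ranges overlap almost wholly. The sites fell in 54 genes, 17 of which had 1, and the 15 genes with the most held 156 (68.4%). Of 136 RefSeq protein-coding genes that overlap the interval, 111 had a member and 52 a protein-altering one.

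**Figure D4:**
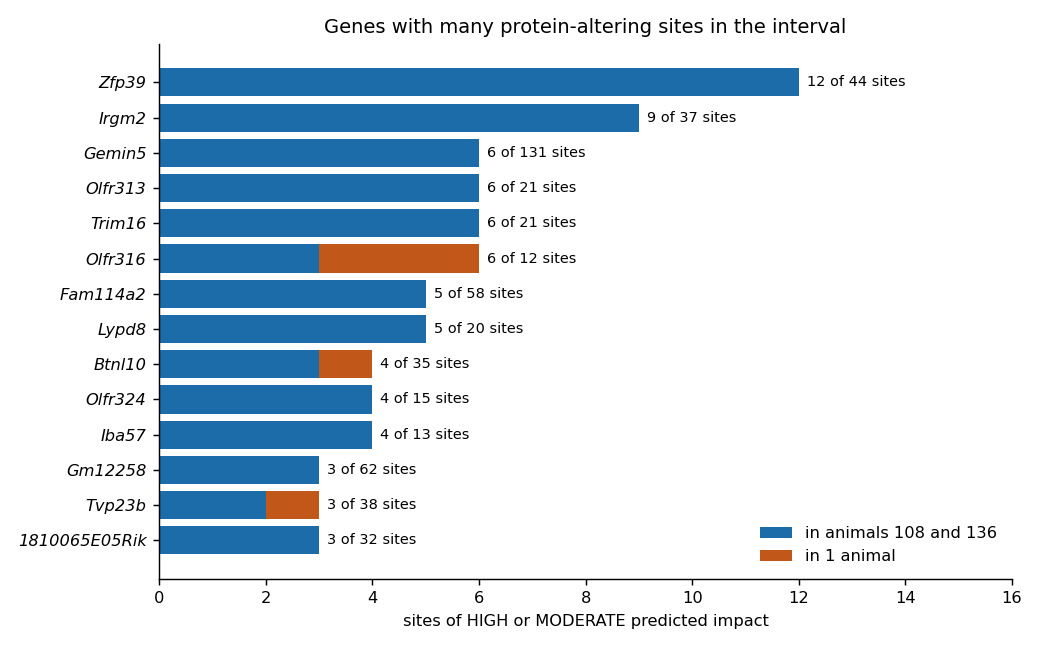
Number of protein-altering members in 14 of the 15 genes that had the most, with the part carried by animals 108 and 136 and the part found in 1 animal, and the number of all members of the gene beside each bar. Zfp39 is shown with 12 of its 44 sites and Irgm2 with 9 of 37, and the other genes have between 3 and 6.

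Protein positions below follow the transcript that SnpEff listed with the greatest impact, and differ between transcripts of a gene. Of the 9 HIGH members, 6 were shared by animals 108 and 136. Iba57, a factor in mitochondrial iron-sulfur cluster assembly, had a frameshift through 2 inserted bases in exon 2 (59161503), carried by 33 of 51 reads (64.7%) in the marrow and 28 of 56 (50%) in the ear of animal 108 and by 26 of 60 reads (43.3%) in the marrow and 30 of 63 (47.6%) in the ear of animal 136. The frame was shifted in 2 of its 3 annotated transcripts, and the site was intronic in the third. The same gene had 3 missense members, G36R, T86A and T87A.

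Zfp287, a zinc finger gene, had a premature stop, R225* (62722931), in 1 of 4 transcripts, the other 3 placing it in an intron. It was carried by 26 of 58 reads (44.8%) in the marrow and 10 of 36 (27.8%) in the ear of animal 108 and by 20 of 57 reads (35.1%) in the marrow and 20 of 37 (54.1%) in the ear of animal 136. All 4 values were intermediate. The missense members of the gene were C233S and R747H.

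Trim16, a member of the tripartite motif family, had a change at a splice donor (62840746) in 1 of 4 transcripts, while other transcripts read it as a missense change. It was carried by 34 of 73 reads (46.6%) in the marrow and 16 of 53 (30.2%) in the ear of animal 108 and by 31 of 77 reads (40.3%) in the marrow and 24 of 48 (50%) in the ear of animal 136. Trim16 also had 4 missense members, A33V, V58L, E322K and D515E, and an in-frame duplication of a glutamate. Mrpl55, a mitochondrial ribosomal protein gene, had a splice acceptor change (59204173) ahead of its coding part in 2 of 8 transcripts, and it was carried by 40 of 75 reads (53.3%) in the marrow and 33 of 63 (52.4%) in the ear of animal 108 and by 41 of 88 reads (46.6%) in the marrow and 30 of 62 (48.4%) in the ear of animal 136. All 4 fractions lay between 46.6% and 53.3%, and the gene's missense member L26F was at 51.2% in the marrow and 47.9% in the ear of animal 108, and 48.8% in the marrow and 48.8% in the ear of animal 136.

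Tvp23b, a Golgi membrane protein gene, had an 8-base deletion at a splice acceptor (62886179) in both animals, on few reads. It was carried by 9 of 14 reads (64.3%) in the marrow and 6 of 9 (66.7%) in the ear of animal 108 and by 3 of 4 reads (75%) in the marrow and 6 of 8 (75%) in the ear of animal 136. Animal 54 had a single base change at the same acceptor (62886187), in 5 of 14 reads (35.7%) in the marrow and 9 of 27 (33.3%) in the ear, and that was its 1 protein-altering member. This base lies within the stretch that the deletion removes. Whether the calls are separate changes or 1 that was aligned in different ways was not tested. The sequence there repeats a single base, and counts of insertions and deletions in such runs are less certain. The remaining shared HIGH site was a deletion within a tandem repeat at a splice donor of Gm12246 (58126409), an antisense transcript that codes for no protein and lies within Gemin5.

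Among the HIGH members in animal 136 alone, Olfr332 had a premature stop, E336* (58489748), in 18 of 32 reads (56.2%) in the marrow and 11 of 28 (39.3%) in the ear. The gene is read on the minus strand and ends in RefSeq at 58489719, so this stop lies near its end and would remove few residues.

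Fractions were lower where mapping quality, the aligner's score for how uniquely reads are placed, was below 37. Among olfactory receptor members the median was 44.9% in the marrow and 46.1% in the ear of animal 108, and 43.7% in the marrow and 44.4% in the ear of animal 136. At quality 37 and above it was 48.9% in the marrow and 48.3% in the ear of animal 108, and 46.6% in the marrow and 46.2% in the ear of animal 136. The same order held for all other members, with 44.4% in the marrow and 45.5% in the ear of animal 108 and 44% in the marrow and 45.5% in the ear of animal 136 below 37, where the medians at 37 and above lay between 47.1% and 47.8%. The part of misplaced reads from related genes or repeated sequence in these fractions was not tested. Low mapping quality was more common in the receptor genes. In marrow of animal 108, 97 members of these genes were below 37 and 101 at or above it, against 269 and 1961 of all others, and in the marrow of animal 136 the numbers were 107 and 103, against 260 and 1892.

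**Figure D5:**
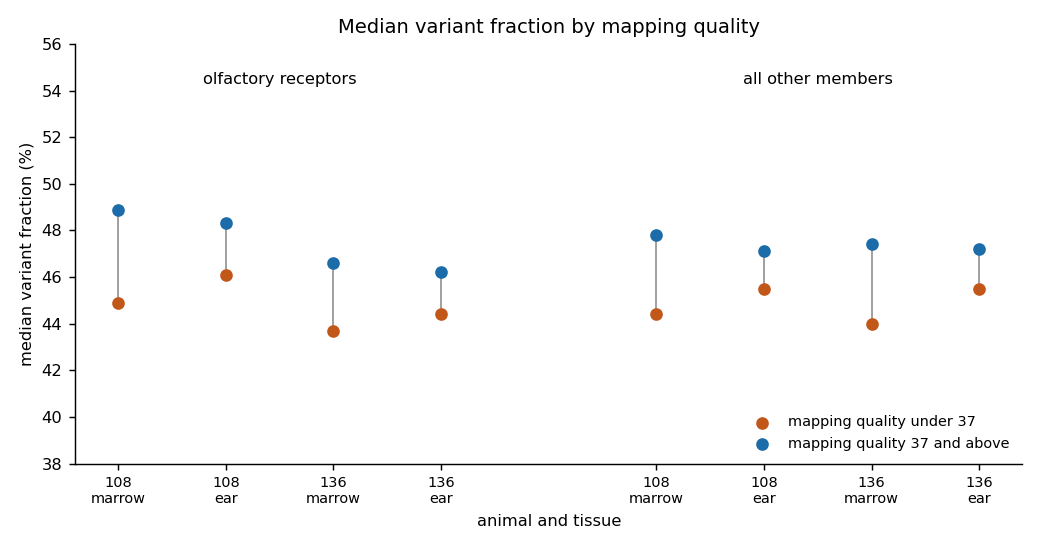
Median variant fraction in percent at members with mapping quality below 37 and at 37 and above, for olfactory receptor genes and all other members, in the marrow and ear of animals 108 and 136 (the vertical axis starts at 38%). The medians below 37 stand under those at 37 and above in all 4 samples, at 43.7% to 46.1% against 46.2% to 48.9% for the receptor genes and at 44% to 45.5% against 47.1% to 47.8% for the other members.

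Olfactory receptor genes made up the largest family. Of 24 named in the interval, 19 had a member and 14 a protein-altering one, with 42 protein-altering and 71 synonymous sites among 220. Olfr313 had 6 missense members, I18V, V96A, I129L, H136Q, C225R and P270R, in both animals. V96A was carried by 347 of 736 reads (47.1%) in the marrow and 344 of 714 (48.2%) in the ear of animal 108 and by 329 of 742 reads (44.3%) in the marrow and 294 of 604 (48.7%) in the ear of animal 136. Its mapping quality was 33 in the marrow of both animals, and its 4 fractions lay close to the median of the interval. Olfr324 had 4 at high mapping quality, I43L, I47V, S92G and S187G, and S92G was at 48.1% in the marrow and 53.3% in the ear of animal 108, and 51.3% in the marrow and 49.9% in the ear of animal 136.

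Olfr316 differed between the animals in its list of calls. A101T, L135F and S147G were in both, and V221M, I226L and K232Q in animal 136 alone, where V221M was carried by 40 of 120 reads (33.3%) in the marrow and 34 of 96 (35.4%) in the ear of animal 136. The mapping quality of these 3 sites was between 17 and 21 in the marrow of animal 136, among the lowest of the protein-altering members. Olfr311 had A210T and H225R in both animals and A2S in animal 136 alone.

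Zinc finger genes, whose products mostly bind DNA, had protein-altering members in 4 of 6, Zfp39, Zfp286, Zfp287 and Zfp692, with 19 sites in all. Zfp39 alone had 12, all in both animals. H265L was carried by 122 of 282 reads (43.3%) in the marrow and 134 of 255 (52.5%) in the ear of animal 108 and by 130 of 283 reads (45.9%) in the marrow and 99 of 194 (51%) in the ear of animal 136. A pair of sites fell in codon 93 and is annotated as S93R at each. The gene's other changes, between K207E and N412S, lay in exon 5.

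The list of innate immunity and blood cell genes had 5 of 12 with a protein-altering member, Irgm2, Igtp, Trim17, Trim58 and Mapk7, with 18 sites. Irgm2 and Igtp encode interferon-induced GTPases that act against pathogens inside cells. Irgm2 had 9 missense members in both animals, V10D, N27D, I143T, L157S, V175I, S205N, H214P, A310S and T360S. A310S was carried by 51 of 102 reads (50%) in the marrow and 52 of 94 (55.3%) in the ear of animal 108 and by 42 of 88 reads (47.7%) in the marrow and 40 of 76 (52.6%) in the ear of animal 136. At I143T and L157S mapping quality was between 33 and 36 in the marrow. I143T was at 42.8% in the marrow and 30.2% in the ear of animal 108, and 40.4% in the marrow and 32.4% in the ear of animal 136. L157S was, in the same order, at 45.1%, 34.4%, 35.4% and 37.1%. Fractions did not follow mapping quality throughout the gene. V10D, at quality 41, was in that order at 39.3%, 53.1%, 53.3% and 24.2%. V175I, at quality 31 to 35, was at 39.6%, 42.1%, 36.3% and 48.9%. Igtp had D113E, L321V and L372V, and L321V was carried by 76 of 168 reads (45.2%) in the marrow and 72 of 161 (44.7%) in the ear of animal 108 and by 84 of 190 reads (44.2%) in the marrow and 72 of 156 (46.2%) in the ear of animal 136.

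Trim58, an E3 ubiquitin ligase that takes part in the loss of the nucleus by mouse erythroblasts, had L131M and N482S in both animals. N482S was carried by 45 of 85 reads (52.9%) in the marrow and 63 of 100 (63%) in the ear of animal 108 and by 46 of 98 reads (46.9%) in the marrow and 47 of 76 (61.8%) in the ear of animal 136. Trim17 had M129I and N259S. Mapk7, which encodes the kinase ERK5, had a pair of in-frame insertions in exon 5 in a run of alanine and proline codons. The shorter one was carried by 28 of 147 reads (19%) in the marrow and 23 of 103 (22.3%) in the ear of animal 108 and by 31 of 133 reads (23.3%) in the marrow and 20 of 111 (18%) in the ear of animal 136. The longer one, beside it, was a member in animal 108 alone, in 104 of 222 reads (46.8%) in the marrow and 89 of 172 (51.7%) in the ear. Whether these are 2 alleles or 1 that was aligned in different ways was not tested. The inflammasome gene Nlrp3 and the TNF receptor family gene Tnfrsf13b had 1 member each, neither of them protein-altering.

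Of 16 genes of transcription, chromatin and protein turnover, 11 had a member and 4 a protein-altering one. Gemin5, the subunit of the SMN complex that recognises small nuclear RNAs, had 6 missense members in both animals, E623D, C808S, A830P, M1097V, S1321G and S1446T. E623D was carried by 170 of 322 reads (52.8%) in the marrow and 135 of 307 (44%) in the ear of animal 108 and by 150 of 319 reads (47%) in the marrow and 123 of 263 (46.8%) in the ear of animal 136. Rai1, a regulator of transcription, had N818D, at 42.8% in the marrow and 52.4% in the ear of animal 108, and 46.7% in the marrow and 43.7% in the ear of animal 136. Top3a, a DNA topoisomerase, had G425S, and Larp1, which binds mRNAs of the translation machinery, had V257I. The corepressor gene Ncor1 had 26 members, 3 of them synonymous and none protein-altering.

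Of 9 lipid and aldehyde genes, 5 had a member and 1, Srebf1, a protein-altering one. Among all 136 RefSeq protein-coding genes that overlap the interval, the numbers were 111 and 52. Srebf1 encodes a transcription factor that turns on lipid synthesis, and its V256M was carried by 61 of 114 reads (53.5%) in the marrow and 49 of 85 (57.6%) in the ear of animal 108 and by 50 of 91 reads (54.9%) in the marrow and 38 of 64 (59.4%) in the ear of animal 136. Of the Wnt ligand genes Wnt3a and Wnt9a, Wnt3a had 7 members, 3 synonymous and none protein-altering. Among 3 transporter genes none had one.

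Lypd8, which encodes a protein of the colon epithelium that keeps flagellated bacteria away, had 5, Y27H, A70E, E75K, T211S and T214A. Y27H was at 55.8% in the marrow and 58.8% in the ear of animal 108, and 55.1% in the marrow and 53.4% in the ear of animal 136. T211S and T214A, close neighbours, were much lower, with T214A carried by 47 of 192 reads (24.5%) in the marrow and 33 of 139 (23.7%) in the ear of animal 108 and by 31 of 159 reads (19.5%) in the marrow and 29 of 126 (23%) in the ear of animal 136, and their mapping quality of 39 was not low. Fam114a2 had G14E, N304D, V318I, A438V and S494P. Btnl10, a butyrophilin-like gene, had V93A, T250I and an in-frame insertion in both animals, and an adjoining insertion in animal 136 alone.

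Genes with 1 or 2 protein-altering members included Akap10, an anchor of protein kinase A, with S211C at 55.6% in the marrow and 47.1% in the ear of animal 108, and 45.4% in the marrow and 52% in the ear of animal 136. Smcr8, a partner of C9orf72, had V360A and R616S, and the mitochondrial ribosomal gene Mrpl22 had A4T. Prpsap2, which encodes a protein of the phosphoribosyl pyrophosphate synthetase complex, had V21G in animal 108 alone, in 18 of 28 reads (64.3%) in the marrow and 8 of 23 (34.8%) in the ear.

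Animal 54 did not share the block of alleles. Its 22 members were 17 single nucleotide sites and 5 insertions or deletions, 9 found in it alone and 13 also in animal 108 or 136. All but 2 lay in introns, UTRs or outside genes, the exceptions being the acceptor site of Tvp23b and a splice region site beside it. Clusters of a few bases in introns of Flcn, the tumour suppressor folliculin, and of Pemt, an enzyme of phosphatidylcholine synthesis, made up 6 of the 13. At the Pemt site 60046164, 10 of 14 reads (71.4%) in the marrow and 6 of 22 (27.3%) in the ear of animal 54 carried the variant, and the two-sided Fisher's exact test gave an adjusted p of 0.465. The site with the most reads, upstream of Gm12619 (60657901), had 75.6% of 78 reads in the marrow and 83.9% of 124 reads in the ear, at a mapping quality of 17 in the marrow. The 22 sites had a median of 14 reads in the marrow, too few for a close estimate of any one fraction.

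The authors' deposited somatic lists, which compare marrow with ear of each animal, held few calls in the interval. In the authors' deposited table of Strelka calls that passed, 13 of 1532 in animal 108 (0.849%), 18 of 2138 in animal 136 (0.842%) and 11 of 2933 in animal 54 (0.375%) lay there, none at a member of that animal. A HIGH call in the authors' deposited table was R154* in Fam211a in animal 136, at quality 16. Calls in the authors' deposited table that met genes of the lists included G531E in Top3a, P242T in Ulk2 and V186I in Zfp287 in animal 54. Animal 108 had C126S in the drug transporter gene Slc47a1 and D351Y in the autophagy kinase gene Ulk2 there, and animal 136 had K132M in the Mediator subunit gene Med9, R1708H in the hearing gene Myo15 and K321E in Dhrs7b. The lowest quality was 15 in each animal, and the medians were 23, 22 and 24 in animals 108, 136 and 54.

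VarScan2 marked calls as somatic or as loss of heterozygosity. In the authors' deposited tables, 11 of 183 loss of heterozygosity calls of animal 108 (6.01%) and 5 of 64 of animal 136 (7.81%) were in the interval, against 0 of 253 in animal 54. Of these, 7 and 4 were at members, among them sites in Fam183b, Fbxw10 and Guk1 in animal 108 and in Gemin5, Guk1, Dhrs7b and Fam83g in animal 136. For comparison, the interval held 4.87% of the sites called in both tissues of animal 108 and 20.2% of those of animal 136. Somatic calls in the authors' deposited tables numbered 30 of 1683 in animal 108, 27 of 561 in animal 136 and 3 of 1028 in animal 54, of which 5, 9 and 0 stood at members. A member is by definition called in the ear too, so those 14 positions were listed as somatic although the ear list held the same position.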

How the data were processed

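The deposited lists of all variants give, per sample, each site's depth, mapping quality and read count per allele and strand (per the file headers, SAMtools called the sites and SnpEff annotated them). The submitters' processing notes also name FastQC and Bowtie2, and as builds GRCm38 and mm9, with no roles. Coordinates are given as GRCm38, since all 686 coding members with a RefSeq entry fell inside that gene in GRCm38.p6. Which filters made the lists is not given in the sources used here. The lists held 24915 to 79759 sites, with a median of 45 to 114 reads at coding sites and a lowest listed depth of 11, which includes reads that the counts per allele leave out.

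From these, variant fractions were computed as variant reads of the reads of both alleles, at sites with at least 10. Members matched between lists on position and alleles. Marrow and ear of 1 animal were paired, per the labels, and compared with Fisher's exact test per site (Benjamini-Hochberg over all sites, threshold 0.05) and an exact sign-flip permutation test over animals. Shares have 95% Clopper-Pearson intervals. Python 3.11.15 and SciPy 1.17.1 were used. The Fisher step was also run on simulated reads, drawn independently and without shared fragments or misplaced reads. That run therefore does not show how the step behaves where reads are shared or misplaced.

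Genes were named by a fixed rule: those with a HIGH site, the 15 with the most protein-altering sites, list genes with one, genes past a test, and genes altered in 1 animal. A few more were named after their values were seen. The members and lists were chosen with earlier results of these data known. Results for some genes of the interval are not reported here.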

Additional observations from a re-analysis of the deposited data

Results flagged for a closer look

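Sites called in 1 tissue of an animal and not in its other tissue enter no comparison above, and the interval held many. In animal 108 there were 611 called in the marrow alone and 214 in the ear alone, with median depths of 16 and 14 reads. Animal 136 had 353 in the marrow alone and 257 in the ear alone, at medians of 15 and 14 reads. In animal 54 there were 49 in the marrow alone and 112 in the ear alone, at 13 and 15 reads. Some of these sites were members through another animal, 116 (19.0%) and 18 (8.41%) of the marrow and ear sites of animal 108, 116 (32.9%) and 59 (23.0%) of those of animal 136, and 2 (4.08%) and 10 (8.93%) of those of animal 54. Their median variant fractions were 43.3% in the marrow and 33.1% in the ear of animal 108. The medians were 41.7% in the marrow and 35.2% in the ear of animal 136, and for animal 54 they were 21.4% in its marrow and 23.5% in its ear. The lists give no depth in the tissue without a call.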

How the results depend on the processing

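The mean marrow minus ear difference in the median fraction, -0.995 points, ranged from -1.78 to 0.314 when 1 animal was left out, and turned positive (0.314) without animal 54, which has 18 sites. With no replicate block, an unpaired exact permutation test gave -0.995 points and p = 0.9. At 20 reads or more it was -3.48, for single nucleotide sites -2.74 and as a mean over sites -0.593 points. No p was below 0.5 in any alternative, but the sign-flip test cannot give less than 0.25 with 3 pairs or less than 0.5 with 2. These p-values therefore say little about stability. Members that differed between marrow and ear numbered 0 in each animal also at 20 reads or more and for single nucleotide sites, and at an unadjusted p 221, 174 and 2 in animals 108, 136 and 54. Between animals 108 and 136, 13 members differed in the ear under both of these filters, 7 in the marrow, and 206 in the ear at an unadjusted p (9.38%, against 9.05% of all sites tested), an alternative chosen after seeing the data. The number of members ranged from 2385 to 2603 and of protein-altering members from 218 to 227 without 1 animal, and no other alternative moved either by over 1.5 times. The share of intermediate fractions, with limits of 30% and 70%, was 93.4% in the marrow and 92.0% in the ear of animal 108. It was 93.3% and 91.9% for the marrow and ear of animal 136, while animal 54 gave 50.0% for marrow and 57.1% for ear. At 20 reads or more it was 99.4% in the ear of animal 108 and 99.3% in the ear of animal 136. The cause of these moves was not tested, beyond the narrower limits themselves.

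The comparisons rest on 3 animals, and animals 108 and 136 share the interval, so its alleles cannot be told apart from whatever else these mice have in common. Sites close to each other on a chromosome tend to be inherited together, and neighbours share reads. The lists give no depth at uncalled sites, so an absent call is not an absent allele. Fractions at shallow sites, such as the deletion in Tvp23b, are known only roughly.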
